A study of Mus musculus with 4 samples.

Results

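The genes described here carry out the entry of fatty acids into the fat cell, their binding in the cytosol and their activation to acyl-CoA: the transporters Cd36, Slc27a1 and Slc27a2, the fatty acid binding proteins Fabp3, Fabp4 and Fabp5, and the long-chain acyl-CoA synthetases Acsl1, Acsl3, Acsl4 and Acsl5. All probe sets that the platform's annotation gives to these 10 genes were taken, which are 16 of 22690 probe sets and belong to 8 of the genes. Acsl1 and Acsl3 have no probe set under their names alone in the annotation used and were not analysed here. The long-chain synthetases are therefore represented by Acsl4 and Acsl5 only. Of the 8 genes measured, 7 reached an average signal of 100 and were tested, and Slc27a2 did not.

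RNA came from the gonadal white adipose tissue (WAT) of male C57BL/6J mice 3 months old, either wild-type or without the Fsp27 gene (Cidec), which encodes a protein of the lipid droplet surface. Total RNA of 5 mice per genotype was combined into 1 pool of 45 μg, and each pool was hybridised in duplicate to Affymetrix mouse genome arrays, giving 4 arrays in all. The FSP27-deficient mice were fed normal chow, the diet of the wild-type mice is not stated in the sources used, and how the gene was inactivated is not described here. The arrays ask how gene expression in WAT differed between the genotypes. As the arrays of a genotype are repeat hybridizations of 1 pool, every standard error and p-value below covers hybridization error alone, and differences among mice are not measured.

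In adipose tissue, fatty acids are released from circulating triglyceride by lipoprotein lipase and enter adipocytes with the help of CD36, a membrane glycoprotein, and of the fatty acid transport proteins of the SLC27 family. In the cytosol they are carried by small fatty acid binding proteins, of which FABP4 is the classic adipocyte form, FABP5 is also found in macrophages and skin, and FABP3 is the form of heart, skeletal muscle and brown fat. Long-chain acyl-CoA synthetases join them to coenzyme A, without which they can be neither stored as triglyceride nor oxidised. SLC27A1 has such a synthetase activity as well and is abundant in brown fat and muscle.

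RefSeq sequence for the 250 bases before the start of transcription was at hand for 6 of the 8 genes measured, in 8 windows (assembly GRCm38.p6), and not for Fabp4 and Fabp5. The windows of the transporter that rose, the synthetase that fell and the abundant transporter that passed no test are shown 5′ to 3′ on the strand of the gene. Capitals mark exact matches, on either strand, to the nuclear receptor motif AGGTCA, the GC box GGGCGG and the CCAAT box. For Slc27a1 the most downstream of its 3 windows is shown, at chr8:71570344-71570593 on the plus strand. The window of Acsl5 is chr19:55253119-55253368 on the plus strand, and that of Cd36 is chr5:17835897-17836146 on the minus strand.
Slc27a1: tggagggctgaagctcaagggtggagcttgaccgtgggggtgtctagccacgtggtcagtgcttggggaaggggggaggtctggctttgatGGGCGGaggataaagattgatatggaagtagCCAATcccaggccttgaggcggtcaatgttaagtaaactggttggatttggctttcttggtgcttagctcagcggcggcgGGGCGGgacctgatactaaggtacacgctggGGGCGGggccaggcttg
Acsl5: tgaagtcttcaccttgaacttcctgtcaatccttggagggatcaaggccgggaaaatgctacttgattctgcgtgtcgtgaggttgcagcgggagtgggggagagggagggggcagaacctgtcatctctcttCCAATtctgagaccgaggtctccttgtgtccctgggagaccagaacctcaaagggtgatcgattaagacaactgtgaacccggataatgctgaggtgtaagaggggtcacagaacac
Cd36: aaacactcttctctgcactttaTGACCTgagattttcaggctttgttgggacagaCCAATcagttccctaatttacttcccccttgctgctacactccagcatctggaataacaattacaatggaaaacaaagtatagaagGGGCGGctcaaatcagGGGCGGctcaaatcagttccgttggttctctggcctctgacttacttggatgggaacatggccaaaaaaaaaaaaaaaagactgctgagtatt
The Slc27a1 window holds 3 GC boxes, 159, 48 and 17 bases before the start, and 1 CCAAT box at 128 bases. The Acsl5 window holds a CCAAT box at 117 bases and no GC box. The Cd36 window holds GC boxes at 109 and 93 bases, a CCAAT box at 195 bases and, on the opposite strand, AGGTCA at 228 bases. Among the 8 windows AGGTCA occurred in 2, those of Cd36 and Slc27a2, and its direct repeat with 1 base between the copies, the arrangement bound by PPAR and RXR, in 0. Of 32851 promoter windows of the same length, 14% hold AGGTCA, 32.7% the GC box, 33.8% the CCAAT box and 0.0335% the direct repeat. No motif here was read as a bound site.

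The deposited values are intensities on a linear scale, computed by the authors in the Affymetrix software GCOS. Median signals were between 164.8 and 192.8, lower quartiles between 52.66 and 64.14, and the highest signals between 53676 and 73418. Fold changes on the log2 scale below are those of the signal plus 16, FSP27-deficient minus wild-type, which understates changes at low signals, and ratios are those of mean signals. Adjusted p-values are from limma with Benjamini-Hochberg adjustment, over 8522 genes, each read from its brightest probe set, or over 14360 probe sets. The median log2 fold change of all genes tested was -0.08. limma let the error of a gene vary with its signal. Without this trend it called 1 gene of the whole array at the threshold of 0.05, and 0 of the genes described here. Cidec itself had signals of 8564 and 8949 in the FSP27-deficient pool, against 20491 and 18255 in the wild-type pool, a 2.21-fold lower mean (limma, adjusted p = 0.000565). The position of its probes relative to the inactivated part is not described here.

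Genes of each of the 3 classes passed the test in the WAT of FSP27-deficient mice, but not in the same direction. Among the transporters Slc27a1 rose 2.35-fold, and Cd36 did not pass the test. Among the binding proteins Fabp5 rose 1.67-fold. Among the synthetases Acsl5 fell, with wild-type signals 1.73-fold higher. Of the 7 genes tested 2 rose, against 5.79% of all genes tested, and 1 fell, against 6.51%. The remaining 4, Cd36, Fabp3, Fabp4 and Acsl4, did not pass the threshold. The median log2 fold change of the 7 genes was 0.33. Of the 14 probe sets tested 3 rose, against 4.81% of all probe sets, and 1 fell, against 5.40%. The criterion of the study's methods is a change of at least 1.4-fold with both duplicates on the same side. By it Slc27a1, Fabp3 and Fabp5 were higher, against 14.4% of all genes tested, and Acsl5 was lower, against 20.6%. Fabp3 was among the genes tested only through its FSP27-deficient arrays, with a mean of 169.8 against 52.6. Its place in this count, and in the median of the 7 genes, therefore depends on the filter. Over all 16 probe sets, tested or not, the arrays of the genotypes did not overlap in 10. The FSP27-deficient arrays were above in 8 of these and below in 2. With 4 arrays, chance order alone separates the genotypes with a probability of 0.33. The share of all probe sets on the arrays without overlap was not computed, and probe sets of the same gene are not independent. The count of 10 was therefore not read as a trait of these genes.

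**Figure D1:**
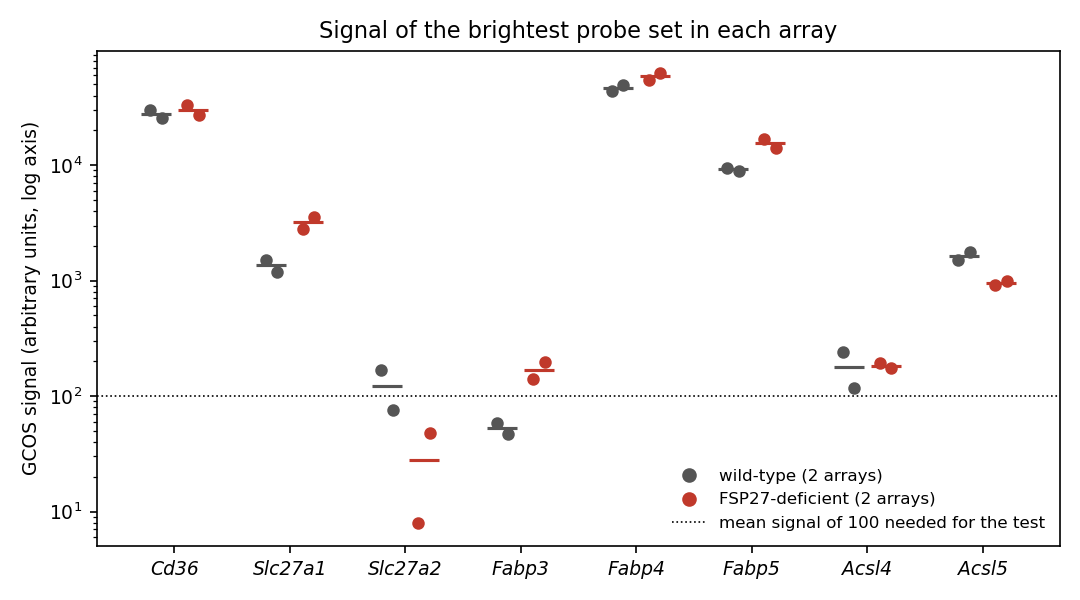
Signal of the brightest probe set of each of the 8 genes measured, on a log axis in arbitrary units, with a point for each array, a bar for the mean of each genotype (n = 2) and a dotted line at the mean signal of 100 needed for the test. The FSP27-deficient points lie above the wild-type points for Slc27a1, Fabp3, Fabp4 and Fabp5 and below them for Slc27a2 and Acsl5, while those of Cd36 and Acsl4 overlap. Levels of different genes cannot be compared, since probes differ in brightness.

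Slc27a1, which encodes the transport protein FATP1, had the clearest difference among the transporters. The signals of its probe set 1422811_at were 2819 and 3558 in the FSP27-deficient pool, against 1519 and 1189 in the wild-type pool. Both FSP27-deficient signals were thus above both wild-type signals by more than the gap between duplicates. The means were 3188 ± 522 and 1354 ± 233 (SD, n = 2), and the log2 fold change was 1.23 with a standard error of 0.20 and a 95% confidence interval from 0.78 to 1.67 (adjusted p = 0.00241 from limma). With each array left out in turn, the adjusted p from limma stayed between 0.00092 and 0.0289. It was 0.0959 without the trend.

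Slc27a2 encodes FATP2, a transport protein and very long-chain acyl-CoA synthetase best known from liver and kidney. Its probe set 1416316_at gave 7.93 and 48.0 in the FSP27-deficient pool, against 168.1 and 75.25 in the wild-type pool. Both FSP27-deficient signals were below the lower quartile of their arrays, and the wild-type signals were above theirs. The wild-type mean was 4.35-fold higher, but the mean over the 4 arrays, 74.8, was under the filter and the gene was not tested. The spread between the wild-type duplicates (SD 65.6, n = 2) was large beside their mean of 121.7.

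Cd36, the fatty acid translocase of the plasma membrane, was measured by 3 probe sets, all designed from 1 sequence record. The brightest, 1450883_a_at, gave 33258 and 27215 in the FSP27-deficient pool, against 29880 and 25587 in the wild-type pool. These signals overlapped between genotypes, and the log2 fold change of 0.12 had an interval from -0.22 to 0.47 (adjusted p = 0.692 from limma over genes). Its sign turned with quantile normalization, to -0.12, and without the FSP27-deficient replicate 1, to -0.023. Probe set 1423166_at gave 20772 and 20624 against 18207 and 16046, a 1.21-fold higher mean (adjusted p = 0.33 from limma over probe sets). Probe set 1450884_at gave 5773 and 4805 against 4622 and 4470, a 1.16-fold higher mean (adjusted p = 0.52). In both of these probe sets the FSP27-deficient arrays were above the wild-type arrays, by amounts that did not pass the test.

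Fabp5, the epidermal fatty acid binding protein, was higher in both of its probe sets. The brighter, 1416021_a_at, gave 16940 and 13965 in the FSP27-deficient pool, against 9519 and 8955 in the wild-type pool. The other, 1416022_at, gave 12346 and 10530 against 4944 and 4812. In each probe set the FSP27-deficient arrays were well above both wild-type arrays, and the wild-type duplicates were close to each other. The brighter probe set had means of 15452 ± 2104 and 9237 ± 399 (SD, n = 2) and a log2 fold change of 0.74 with a standard error of 0.16 and an interval from 0.39 to 1.08 (adjusted p = 0.0107 from limma over genes). The other had a 2.35-fold higher mean and a log2 fold change of 1.22 with a standard error of 0.17 (adjusted p = 0.000815 from limma over probe sets). The probe sets were designed from the same sequence record, yet the dimmer over the brighter, within an array, stood 0.49 higher on the log2 scale in the FSP27-deficient pool, with no overlap between genotypes. The call of the brighter probe set was lost without wild-type replicate 1 (log2 fold change 0.78, adjusted p = 0.0757), without wild-type replicate 2 (0.69, adjusted p = 0.111) and without the filter on low signals (adjusted p = 0.0635), all from limma over genes. That of the dimmer probe set held without any 1 array, with adjusted p from 7.56e-05 to 0.000994.

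Fabp4, the adipocyte form, was measured by 4 probe sets, none of which passed the test with all arrays. The brightest, 1417023_a_at, was among the strongest signals of the arrays, with 55056 and 62522 in the FSP27-deficient pool, against 43790 and 49664 in the wild-type pool. Probe set 1451263_a_at gave 20586 and 23086 against 15333 and 17407. In both the FSP27-deficient arrays were above the wild-type arrays, by 1.26-fold (log2 fold change 0.33, interval from 0.01 to 0.65, adjusted p = 0.177 from limma over genes) and by 1.33-fold (log2 fold change 0.42, adjusted p = 0.142 from limma over probe sets). Without FSP27-deficient replicate 1 both passed the threshold over probe sets, with log2 fold changes of 0.42 and 0.50 (limma, adjusted p = 0.0495 and 0.042). The 2 dimmer probe sets did not share this order. Probe set 1424155_at gave 6012 and 7382 against 5292 and 7732, with a log2 fold change of 0.06 (adjusted p = 0.905). Probe set 1425809_at gave 1034 and 1503 against 1354 and 2216, with a log2 fold change of -0.47 (adjusted p = 0.311). Genotypes overlapped in both. Taken over the brightest probe set within each array, 1425809_at stood at -5.71 and -5.36 on the log2 scale in the FSP27-deficient pool, against -5.00 and -4.48 in the wild-type pool, which did not overlap. The probe sets of Fabp4 therefore gave no common size of difference, and their mean log2 signal differed by 0.08 (adjusted p = 0.853). The files used here do not mark saturated spots.

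Fabp3, the heart and muscle form, had a low signal. Its probe set 1416023_at gave 141.1 and 198.4 in the FSP27-deficient pool, against 58.3 and 46.81 in the wild-type pool. The genotypes did not overlap, and both wild-type signals were below the lower quartile of their arrays. The mean was 3.23-fold higher, the largest ratio among the 7 genes tested, but at this signal the spread allowed by the fit was wide, and the log2 fold change of 1.43 had an interval from -0.03 to 2.89 (adjusted p = 0.209 from limma). Fabp3 passed the filter only through the FSP27-deficient arrays, whose mean was 169.8 ± 40.5 against 52.6 ± 8.13 (SD, n = 2).

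**Figure D2:**
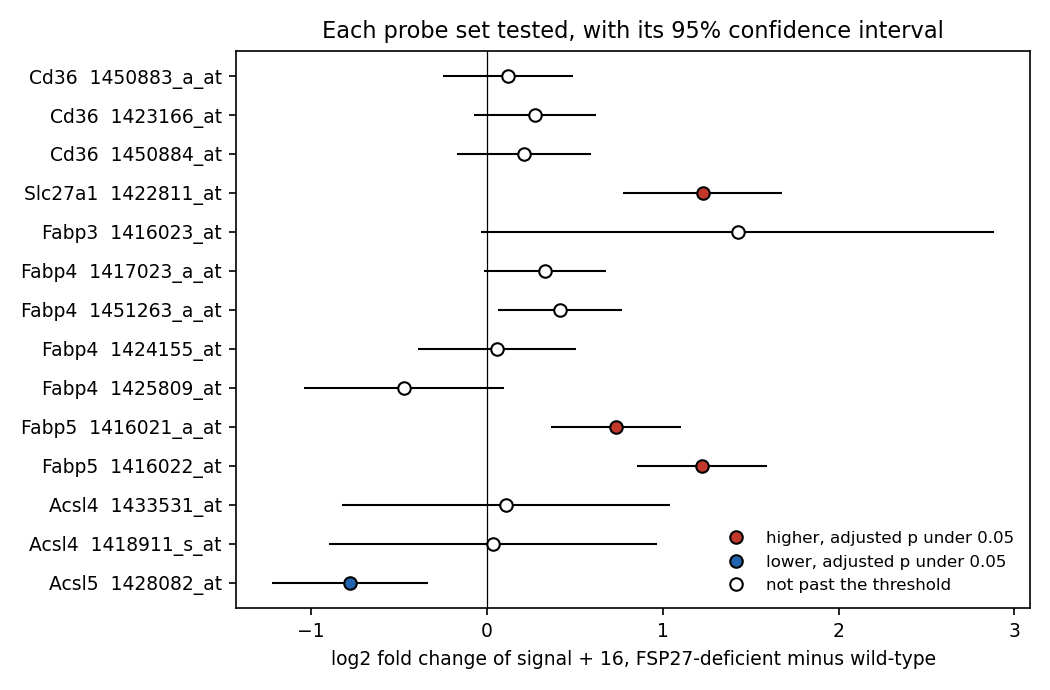
Log2 fold change of the signal plus 16, FSP27-deficient minus wild-type, for each of the 14 probe sets tested, with its 95% confidence interval from limma over probe sets. The interval of 1 Slc27a1 and 2 Fabp5 probe sets lies above 0 and that of the Acsl5 probe set below 0, with adjusted p under 0.05, while the 4 Fabp4 probe sets lie on both sides of 0.

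Acsl5, a synthetase of mitochondria and endoplasmic reticulum best known from intestine and liver, was the 1 gene of the group that fell. Its probe set 1428082_at gave 918.4 and 984.3 in the FSP27-deficient pool, against 1510 and 1782 in the wild-type pool. The genotypes were apart by more than the gaps between duplicates. The means were 951 ± 46.6 and 1646 ± 192 (SD, n = 2), and the log2 fold change was -0.78 with a standard error of 0.20 and an interval from -1.21 to -0.34 (adjusted p = 0.0232 from limma). The call was lost without wild-type replicate 1 (log2 fold change -0.90, adjusted p = 0.0889), without wild-type replicate 2 (-0.66, adjusted p = 0.233) and with each array centred on its median (-0.71, adjusted p = 0.0836), with the direction kept in each.

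Acsl4, the synthetase that prefers arachidonate, gave low signals in 3 probe sets. The brightest, 1433531_at, gave 192.2 and 175.1 in the FSP27-deficient pool, against 240.1 and 117.2 in the wild-type pool, so that the wild-type duplicates enclosed both FSP27-deficient signals. The log2 fold change was 0.11 with an interval from -0.83 to 1.05 (adjusted p = 0.911 from limma), a range that includes a fall of the size seen in Acsl5. Probe set 1418911_s_at gave 184.7 and 141.3 against 182.0 and 135.7 (log2 fold change 0.04, adjusted p = 0.975 from limma over probe sets). Probe set 1451828_a_at, under the filter, gave 57.07 and 107.3 against 93.85 and 70.96. Genotypes overlapped in all 3 probe sets.

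Ratios of related genes within an array show whether members of a family moved unequally and do not depend on a factor that scales the whole array. The level of such a ratio depends on the probes and was not read, and the difference between genotypes was. Of 10 pairs 5 could be measured. The log2 ratio of Acsl4 to Acsl5 was -2.17 and -2.39 in the FSP27-deficient pool, against -2.58 and -3.75 in the wild-type pool, a difference of 0.89. It was 1.48 without wild-type replicate 1 and 0.30 without wild-type replicate 2. In the binding proteins, Fabp5 over Fabp4 was -1.70 and -2.16 against -2.20 and -2.47, a difference of 0.40 or 1.32-fold. It was 0.17 without FSP27-deficient replicate 1, 0.64 without FSP27-deficient replicate 2, 0.27 without wild-type replicate 2 and 0.89 with the mean of the probe sets. The other 3 ratios rest on low signals, those of Slc27a2 in the FSP27-deficient pool and of Fabp3 in the wild-type pool being below the lower quartiles of their arrays. For these the size of the difference moves with the pseudocount, from 2.20 to 3.68 for Slc27a1 over Slc27a2, from 0.66 to 1.33 for Fabp3 over Fabp4 and from 0.26 to 0.92 for Fabp3 over Fabp5, with pseudocounts of 64 and 1. Fabp3 over Fabp5 was also 0.33 without FSP27-deficient replicate 2 and 1.05 without FSP27-deficient replicate 1, against 0.69 with all arrays. The genotypes did not overlap in any of the 5 ratios, whose sign is set by which gene is put on top. With 4 arrays the smallest p that an exact two-sided permutation test can give is 0.33, which is the value of each ratio, and also 0.33 after Benjamini-Hochberg adjustment over the 5. The pairs share genes and are not independent of each other.

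**Figure D3:**
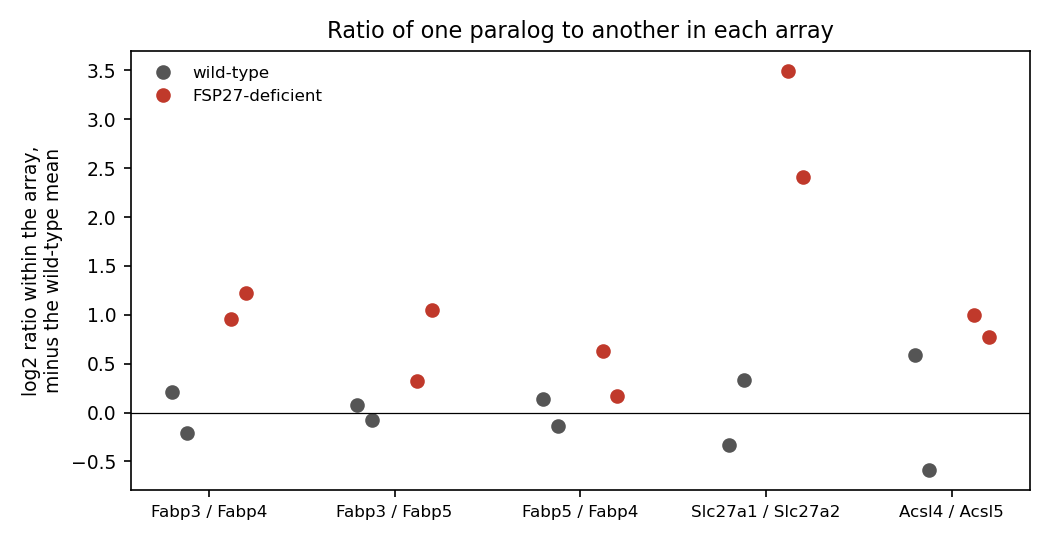
Log2 ratio of the signals plus 16 of related genes within each array, less the mean of the 2 wild-type arrays, with a point for each array. The genotypes do not overlap in any pair, with a mean difference of 0.40 for Fabp5 over Fabp4 and 0.89 for Acsl4 over Acsl5, and the 3 pairs with Fabp3 or Slc27a2 rest on signals below the lower quartile in one genotype.

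Other genes of the same steps were taken from a list of 49, of which 38 were named on the arrays and 22 had enough signal to be tested. Of these 1 rose, 1 fell and 20 did not pass the threshold, against 5.79% higher and 6.51% lower of all genes tested, and their median log2 fold change was 0.24. Acot13, a thioesterase of mitochondria that splits acyl-CoA back to fatty acid, rose. Its signals were 1986 and 2614 in the FSP27-deficient pool, against 1314 and 1304 in the wild-type pool, a 1.76-fold higher mean (log2 fold change 0.79, standard error 0.20, adjusted p = 0.0216 from limma). Its call was lost without FSP27-deficient replicate 2 (0.60, adjusted p = 0.0781), without wild-type replicate 1 (0.80, adjusted p = 0.128) and without wild-type replicate 2 (0.79, adjusted p = 0.127).

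Got2, the mitochondrial aspartate aminotransferase that is also described as the plasma membrane fatty acid binding protein, fell. Its brightest probe set gave 592.1 and 624.7 in the FSP27-deficient pool, against 1952 and 1752 in the wild-type pool, which were 3.04-fold higher (log2 fold change -1.58, standard error 0.20, adjusted p = 0.000381 from limma). The second probe set of Got2 gave 242.8 and 195.1 against 570.3 and 598.4 (log2 fold change -1.36, adjusted p = 0.00597 from limma over probe sets). Both probe sets thus fell by a similar amount, and the call at gene level held without any 1 array.

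Of the other fatty acid transport proteins 1 of 3 named genes was tested. Slc27a4 gave 1043 and 1019 against 910.7 and 656.2, with a log2 fold change of 0.41 (adjusted p = 0.289 from limma). All 5 other fatty acid binding proteins named on the arrays were under the filter. Among 7 other synthetases tested, the medium-chain synthetase Acsf2 gave 297.9 and 240.9 against 42.29 and 112.5, with a log2 fold change of 1.71 (adjusted p = 0.0524), and Acsbg1, a synthetase of brain and steroid-producing tissue, gave 148.8 and 29.68 against 181.7 and 213.1, with -1.29 (adjusted p = 0.249, and -2.22 with adjusted p = 0.0181 without FSP27-deficient replicate 1). Each passed the filter only through the genotype in which it was higher, with means in the other of 77.4 for Acsf2 and 89.2 for Acsbg1. The median over the 7 was 0.40. Among 3 acyl-CoA binding proteins with a median of 0.36, Acbd6 had a log2 fold change of 0.73 (adjusted p = 0.0631), with a second probe set at -0.047 and a mean over its probe sets of 0.34 (adjusted p = 0.537). Acbd3 had -0.71 (adjusted p = 0.229), with a second probe set at 0.34. Among 6 thioesterases with a median of 0.29, Acot8 of peroxisomes had 0.72 (adjusted p = 0.0823) and Acot2 of mitochondria 0.34 (adjusted p = 0.738). Lipoprotein lipase, Lpl, which supplies the fatty acids, gave 63150 and 62373 against 46413 and 60980 in its brightest probe set (0.24, adjusted p = 0.386, and -0.030 with quantile normalization). Its second probe set gave 25494 and 31533 against 22911 and 19911, a 1.33-fold higher mean without overlap of the genotypes. The log2 fold change there was 0.41, with an interval from 0.04 to 0.78 (adjusted p = 0.17 from limma over probe sets). By real-time PCR of individual mice, not of a pool, the paper reported Lpl as significantly higher in this tissue, by a larger ratio than in either probe set. Cavin1, a coat protein of caveolae, had -0.33 in its brightest probe set (adjusted p = 0.384). Its other probe sets were at -0.58, without overlap of the genotypes, and at -0.87, with overlap (adjusted p = 0.213 and 0.631 from limma over probe sets).

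**Figure D4:**
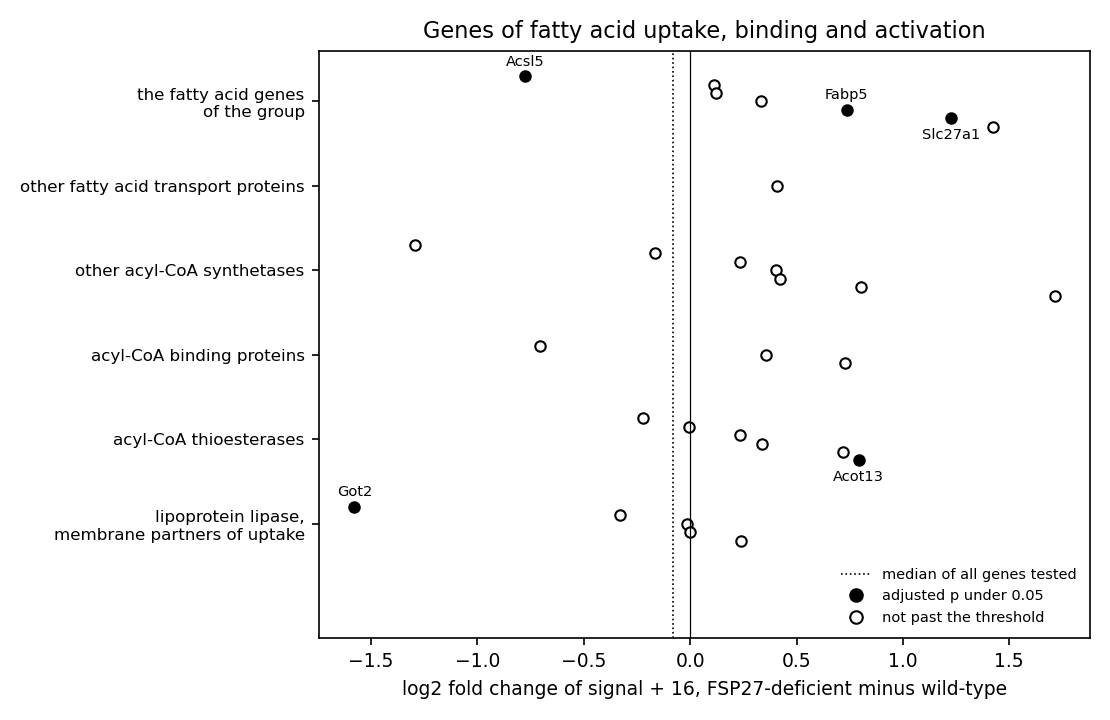
Log2 fold change of the signal plus 16, FSP27-deficient minus wild-type, of the 7 genes of the group and the 22 other genes of fatty acid handling that were tested, with a point for each gene by class, filled where the adjusted p was under 0.05, a solid line at 0 and the median over all tested genes dotted. Filled points are Slc27a1, Fabp5 and Acot13 to the right and Acsl5 and Got2 to the left.

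Markers of cell types differed between the pools. In whole tissue, fewer cells of a type and less RNA per cell cannot be told apart. Adipocyte markers were present in both groups: of 5 tested 1 (Pnpla2) rose and 1 (Lep) fell, and their summed signal was 130411 and 134657 in the FSP27-deficient pool, against 106408 and 119066 in the wild-type pool. Brown adipocyte markers were higher in the FSP27-deficient pool, as Slc27a1 and Fabp5 were: 5 of 6 tested rose, with sums of 20328 and 24735 against 1483 and 1088, while Ucp1 was under the filter at 157.2 and 31.28 against 18.87 and 12.91. Of 9 skeletal muscle markers 8 were under the filter and the 1 tested did not pass the threshold, with sums of 1236 and 721.7 against 1095 and 939.7. The part of brown adipocyte and muscle transcripts in the differences of Slc27a1, Fabp3 and Fabp5 was not tested.

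Macrophage, mesothelial and fibroblast markers that passed the test fell in the FSP27-deficient pool, as Acsl5 and Got2 did. Of 7 macrophage markers tested 5 fell, with sums of 6177 and 7406 in the FSP27-deficient pool, against 16987 and 15575 in the wild-type pool. Macrophages also express Fabp5. Of 4 mesothelial markers 2 fell, with sums of 1410 and 1006 against 3149 and 3597. Of 7 fibroblast and preadipocyte markers 4 fell, with sums of 23915 and 27561 against 44410 and 43559. Of 8 endothelial markers 1 fell, with sums of 6169 and 7476 against 8275 and 9444. Endothelial cells of adipose tissue also express Cd36 and Fabp4. Of 7 lymphocyte markers named 1 was tested and did not pass the threshold, with sums of 848.2 and 473.7 against 443 and 245.3. No marker had a signal of 0 on any array. The part of these cells in the differences of Acsl5, Got2, Fabp5, Cd36 and Fabp4 was not tested.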

How the data were processed

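Affymetrix mouse genome arrays of 1 RNA pool of 5 mice per genotype, 2 arrays each, were used. The authors deposited GCOS signal intensities, and the labels name no GCOS version or scaling target. The platform's annotation names 21084 of 22690 probe sets, 20393 with 1 gene symbol, and the 64 controls and 691 probe sets with several symbols named no gene. Each of 12393 genes was read from its brightest probe set over all arrays. Features whose average signal reached 100 were compared on log2(signal + 16) with limma 3.58.1 in R 4.3.3 (lmFit, eBayes with trend, 2 residual and 12.1 total degrees of freedom), p-values being adjusted by Benjamini-Hochberg and called under 0.05. The steps were tested on simulated data. No columns were left unmapped. Precision is limited by the 4 arrays. The genes and gene lists were chosen with earlier results of these data known. Named were all probe sets of the group, Cidec and, of other genes, those past the threshold and up to 2 more per list by size of change. Tried as alternatives were a pseudocount of 1 or 64, a minimum signal of 200 or none, quantile normalization, median centring, averaging the probe sets of each gene, limma without trend, the methods' test, the replicate number as a block and each array left out. Pooled signals cannot show differences between mice. The authors' real-time PCR was not analysed here.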

Additional observations from a re-analysis of the deposited data

How the results depend on the processing

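Slc27a1 and Fabp5 had a higher and Acsl5 a lower signal in the FSP27-deficient pool under all 14 alternatives, with log2 fold changes from 1.05 to 1.40, from 0.55 to 0.98 and from -0.90 to -0.66, while the calls changed. Of the 7 genes tested, 2 rose and 1 fell. The number that rose was 1 without the filter, 0 without the trend, 0 by the methods' test and from 1 to 2 with each array left out. The number that fell was 0 with each array centred on its median, 0 without the trend, 0 by the methods' test and from 0 to 1 with each array left out. Of their probe sets, 3 rose, and 0 without the trend or by the methods' test, 2 without the filter, 2 with quantile normalization and from 2 to 5 with each array left out, while 1 fell, and 0 with centring, without the trend or by the methods' test and from 0 to 1 with each array left out. The 5 with an array left out, without FSP27-deficient replicate 1, include the 2 brighter Fabp4 probe sets (adjusted p = 0.0495 and 0.042 from limma). By the fold criterion 2 genes were lower without the filter, Slc27a2 being the second. Of the 22 other genes, the 1 that rose became 2 with a pseudocount of 64, 3 with quantile normalization, 2 with centring, 2 with the mean of the probe sets, 0 without the trend, 0 by the methods' test and from 0 to 4 with each array left out, and the 1 that fell became 0 without the trend, 0 by the methods' test and from 1 to 2 with each array left out. Without the trend limma gave an unadjusted p under 0.05 to 1860 of 8522 genes, and the methods' test, which called 0, to 1309. Calls changed over the whole array as well. Of all genes, 12.3% were called in the main fit, 6.24% without the filter and 10.2% with centring. Of all probe sets, 10.2% were called in the main fit, 4.49% without the filter, 8.82% with quantile normalization and 7.74% with centring. Lost calls without the filter, with quantile normalization or with centring were thus not particular to the genes described here. Calls over the whole array also became fewer with either wild-type replicate left out, though not with either FSP27-deficient replicate left out.

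Directions that turned were those of values that passed no test. With quantile normalization Cd36 (brightest probe set 1450883_a_at) was at -0.12, Lpl (brightest probe set) at -0.030 and Fabp4 probe set 1424155_at at -0.13. With each array left out, Cd36 ranged from -0.023 to 0.27 and Fabp4 probe set 1424155_at from -0.21 to 0.33. Acsl4 ranged from -0.36 to 0.58 in probe set 1433531_at and from -0.16 to 0.23 in 1418911_s_at. Acot2 ranged from -0.022 to 0.70, and the brightest probe set of Cavin1 from -0.67 to 0.013. The signs turned without FSP27-deficient replicate 1 for Cd36 and 1418911_s_at (-0.14), without FSP27-deficient replicate 2 for 1424155_at (-0.09), without wild-type replicate 1 for 1424155_at, and without wild-type replicate 2 for both Acsl4 probe sets, Acot2 and Cavin1. The differences of the 5 ratios kept their sign in all 9 alternatives, but not their size, with ranges from 0.66 to 1.34 for Fabp3 over Fabp4, 0.26 to 1.05 for Fabp3 over Fabp5, 0.17 to 0.89 for Fabp5 over Fabp4, 2.20 to 3.68 for Slc27a1 over Slc27a2 and 0.30 to 1.48 for Acsl4 over Acsl5. The deviations of same-numbered arrays from their genotype means had a correlation of r = 0.065 over 8522 genes. With 2 arrays per genotype this value cannot settle whether same-numbered arrays were processed together. With the replicate number as a block, 634 genes rose and 831 fell, against 493 and 555, no count among the 7 genes or their probe sets changed, and of the 22 other genes 3 rose. The cause of these changes was not tested. Where a genotype keeps 1 array, its error is taken from the other genotype.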
